A study of Mus musculus with 28 samples.

Results

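The cytokines that dendritic cells release while they present antigen direct which kind of effector T cell arises. The 10 genes described here encode the subunits of the IL-12 family (Il12a, Il12b, Il23a, Ebi3 and Il27) and 5 further cytokines of dendritic cells (Il6, Il10, Il15, Tnf and Tgfb1). They were chosen by symbol, as probe sets whose annotation carries exactly 1 gene symbol, from 19938 genes named in that way. Each of the 10 had 1 such probe set. In the group given hydralazine and hydrochlorothiazide with angiotensin II, Il12b, Ebi3 and Tgfb1 were higher than with angiotensin II alone. Tnf was higher too, although its call was lost when measured against the median of all genes, and Il12a was lower, on levels too dim to size the fall. Il15 also stood higher there, as a description, since it was bright enough for a test in that group alone. Between that group and angiotensin II alone, 52.7% of all 10452 tested genes were called, so calls were common. In the 6 comparisons without these drugs none of the 7 cytokines that could be tested passed the test. In each of those, 0 to 5 of all tested genes passed it. Il15 was above 5 on 1 array outside the group given both drugs, so its result in these 6 says little.

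IL-12 is a pair of the chains made by Il12a and Il12b and drives type 1 helper T cells and interferon gamma. The Il12b chain also pairs with the Il23a chain to form IL-23, which maintains T cells that make IL-17. Ebi3 pairs with Il27 to form IL-27, and with the Il12a chain to form IL-35, which is described in regulatory lymphocytes. These cytokines work as pairs, so the transcript of each chain was followed separately.

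The study measured transcripts of primary dendritic cells from the spleen of 3 months old mice, on 28 one-colour Affymetrix arrays, to ask how oxidative stress shapes the expression of these cells. The 21 arrays of C57BL6/J wild type mice formed 4 groups: vehicle (7 arrays), angiotensin II (Ang II, 4 arrays), Ang II plus 2-hydroxybenzylamine (2-HOBA, 4 arrays) and Ang II plus both hydralazine and hydrochlorothiazide (Hyd/HCTZ, 6 arrays). The 7 arrays of NOX2 (GP91 Phox) knockout mice formed 2 groups, vehicle (3 arrays) and Ang II (4 arrays). The labels call the arrays of a group biological replicates. Ang II, a peptide hormone, raises blood pressure, 2-HOBA scavenges reactive products of lipid oxidation, hydralazine widens blood vessels and hydrochlorothiazide is a diuretic. Cybb encodes NOX2, the part of the NADPH oxidase of phagocytes that makes superoxide. Whether mice or isolated cells received the agents, their doses, the duration and the gate that isolated the cells were not settled by the sources used here. No group received Hyd/HCTZ without Ang II, and no knockout group received 2-HOBA or Hyd/HCTZ.

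Levels are log2 values on the RMA scale, on which a step of 1 is a 2-fold difference, and levels of different genes are not compared, since probe sets differ in brightness. Cybb lay between 6.41 and 7.18 on the 7 knockout arrays and between 8.35 and 9.75 on 20 of the 21 wild type arrays. The array labelled replicate 2 of wild type vehicle was at 6.34, against its label. Its mean correlation with the other arrays was 0.852, where theirs were 0.927 to 0.956. The defining dendritic cell genes Flt3, Itgax and Zbtb46 were measured in every group, and in the Ang II group they averaged 8.09 ± 0.26, 8.17 ± 0.24 and 5.49 ± 0.22 (SD, n = 4). The interquartile range of an array, its spread over all probe sets, was 3.09 to 3.44 on the Hyd/HCTZ arrays, against 1.92 to 3.03 on all others. The arrays were ordered along the first principal component of 998 unnamed control probe sets. They were cut into 3 array sets at its 2 widest gaps with at least 2 arrays on each side. The number of sets was thus chosen, not found. The array labelled replicate 2 of wild type vehicle, at -25.95, stood apart from the next at -14.39 and stayed in the first set. The sets were defined after the data were seen, and the third was the 6 Hyd/HCTZ arrays. The Hyd/HCTZ group and its array set therefore cannot be told apart. The first set held the 7 knockout arrays with replicates 1 to 3 of wild type vehicle and 1 and 2 of wild type Ang II, and the second held the other 10 wild type arrays.

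Of the 10 cytokines, 7 exceeded a level of 5 on at least 3 arrays, the minimum for a test, and 3 did not. Ebi3, Tnf and Tgfb1 were above 5 on all 28 arrays, and Il27 on 27. Il12b was above 5 on 12 arrays, of which 6 lay outside the Hyd/HCTZ group. Il12a was above 5 on 8 arrays, all outside that group. Il15 was above 5 on 7 arrays, of which 1 lay outside the Hyd/HCTZ group, so it passed the minimum only through the group in which it was high. Its Hyd/HCTZ levels are therefore given as a description, with no test, and it is left out of the Hyd/HCTZ counts. In the comparisons without Hyd/HCTZ it is counted among the 7, on group means of 4.21 to 4.69. Its results there say little, since those means are below 5. Il23a, Il6 and Il10 were below 5 on every array, with highest levels of 4.71, 4.66 and 4.54, and were not tested. Such dim levels carry no statement about expression, since no detection calls were used here.

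Shared regulation of these cytokines was not tested, and the call of Tnf against Ang II alone was lost against the median of all genes. The 250 bases before the RefSeq start (GRCm38.p6) follow for Il12b, Ebi3 and Tnf, called higher with Hyd/HCTZ, and for the untested Il6. They are written 5′ to 3′ on the gene's strand, and capitals mark matches to the motifs searched.
Il12b, chr11:44399813-44400062, plus strand: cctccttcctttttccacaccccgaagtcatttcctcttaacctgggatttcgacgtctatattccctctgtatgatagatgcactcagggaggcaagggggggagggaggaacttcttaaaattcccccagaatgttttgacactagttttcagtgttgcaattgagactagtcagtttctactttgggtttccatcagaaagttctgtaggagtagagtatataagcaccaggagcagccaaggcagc
Ebi3, chr17:55952373-55952622, plus strand: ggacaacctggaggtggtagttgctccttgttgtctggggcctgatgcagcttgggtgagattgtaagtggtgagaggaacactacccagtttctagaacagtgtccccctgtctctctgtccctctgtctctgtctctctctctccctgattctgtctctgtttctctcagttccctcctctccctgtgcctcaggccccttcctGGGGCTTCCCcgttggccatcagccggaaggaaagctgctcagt
Il6, chr5:30012864-30013113, plus strand: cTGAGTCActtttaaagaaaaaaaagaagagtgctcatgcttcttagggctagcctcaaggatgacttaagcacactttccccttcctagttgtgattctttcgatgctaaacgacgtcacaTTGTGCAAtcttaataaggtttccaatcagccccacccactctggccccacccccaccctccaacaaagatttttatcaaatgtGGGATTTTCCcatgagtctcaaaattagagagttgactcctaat
Tnf, chr17:35202008-35202257, minus strand: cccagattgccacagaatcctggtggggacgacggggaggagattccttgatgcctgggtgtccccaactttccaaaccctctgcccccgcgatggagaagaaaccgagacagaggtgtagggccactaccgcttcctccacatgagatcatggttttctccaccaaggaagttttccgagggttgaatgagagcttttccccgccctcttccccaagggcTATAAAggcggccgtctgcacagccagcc
The motifs, searched on both strands, were the consensus of NF-kB, the AP-1 motif TGANTCA, an IRF motif (GAAA, then 2 bases of any kind, then GAAA), the C/EBP motif TTNNGCAA and the TATA motif TATAAA. The NF-kB consensus stood 35 to 44 bases before the start in Ebi3 and likewise in Il6, where it read GGGGCTTCCC and GGGATTTTCC. The Il6 window also held TGAGTCA at 243 to 249 bases and TTGTGCAA at 121 to 128 bases before the start. The Tnf window held TATAAA at 24 to 29 bases, and the Il12b window held none of these letters. Of 32817 RefSeq windows of this length, 7.25% held the NF-kB consensus, 6.75% the AP-1, 2.97% the IRF, 9.57% the C/EBP and 12.4% the TATA motif. Windows of Il12a and Tgfb1 were searched too, and the Tgfb1 window held the NF-kB consensus at 131 to 140 bases before the start. These matches describe letters, not occupied sites.

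**Figure D1:**
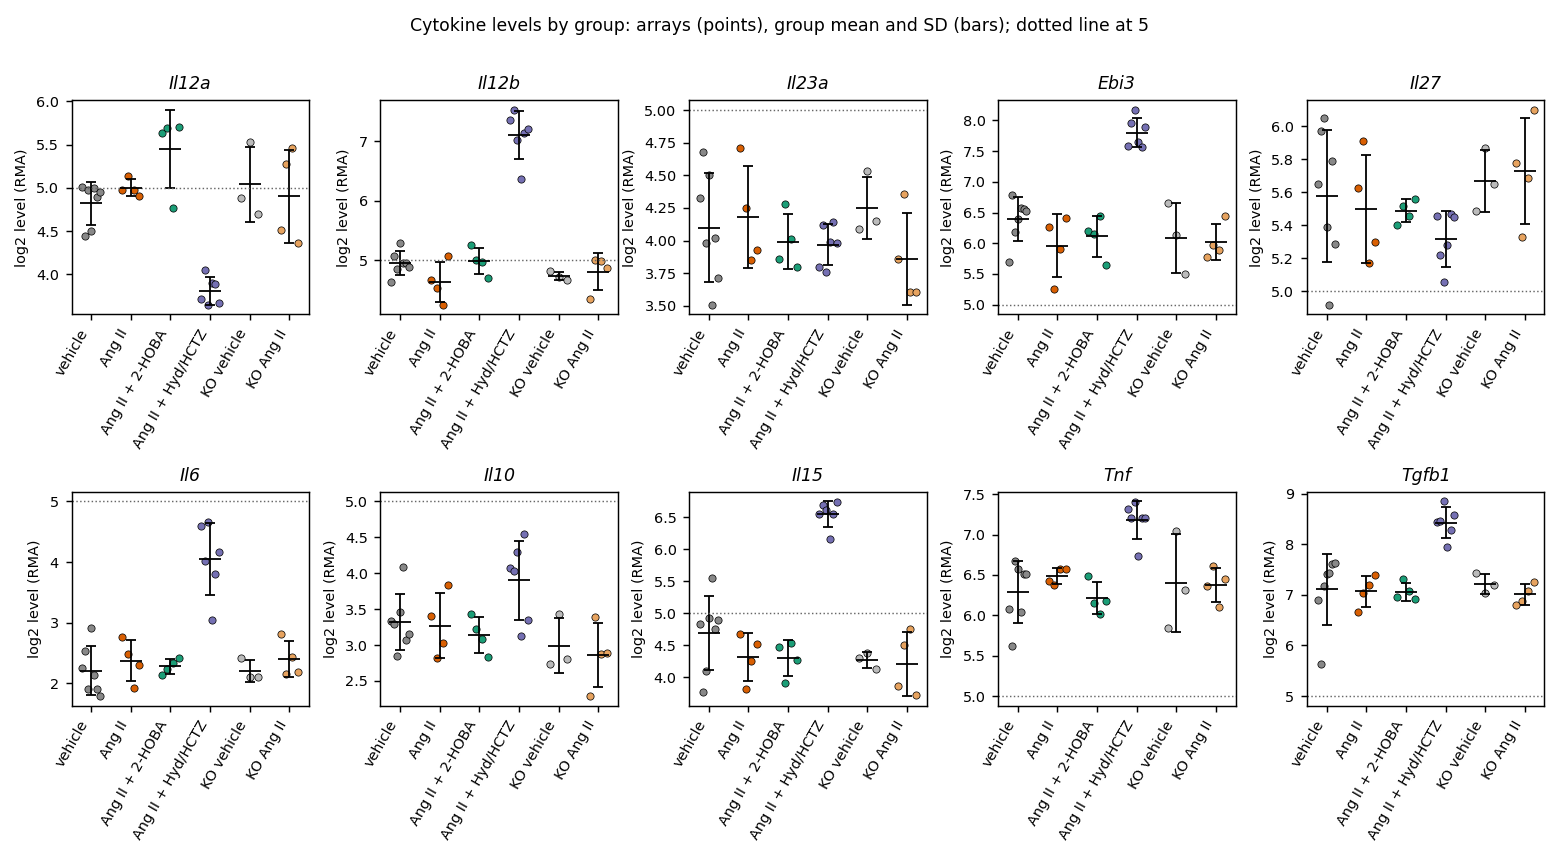
Log2 level (RMA scale, y axis) of each of the 10 cytokines on every array (points) in the 6 groups (x axis), with the group mean and SD as bars and a dotted line at 5. All 6 Hyd/HCTZ arrays lie above the 22 other arrays for Il12b, Ebi3, Il6, Il15 and Tgfb1 and below them for Il12a.

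The comparison of Ang II with Hyd/HCTZ against Ang II alone asked what the antihypertensive drugs add. Of the 6 cytokines that reached the minimum without the Hyd/HCTZ arrays, 4 were higher (Il12b, Ebi3, Tgfb1 and Tnf) and 1 was lower (Il12a) at an adjusted p below 0.05 in limma. In this comparison 52.7% of all 10452 tested genes were called, 40.8% higher and 11.9% lower, so calls were common. The median difference of the 6 cytokines was 1.03, and that of all tested genes was 0.32. Each difference is therefore also given relative to that median of 0.32. Measured this way 3 cytokines were higher and 2 lower, where 48.6% of all tested genes were called, 23.7% higher and 25% lower, with Tnf no longer called and Il27 called as lower. The counts without Hyd/HCTZ replicate 4, the array with the narrowest spread of that group, were the same 5 cytokines. In bulk RNA, fewer cells of a type and less RNA per cell cannot be told apart.

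Il12b encodes the chain shared by IL-12 and IL-23. Its level on the 6 Hyd/HCTZ arrays ran from 6.36 to 7.52 with a median of 7.17. It was 4.67, 4.54, 4.26 and 5.07 on the 4 Ang II arrays and ran from 4.64 to 5.30 with a median of 4.96 on the 7 vehicle arrays. The lowest Hyd/HCTZ array thus lay above the highest array of the other groups, where levels did not exceed 5.30. With 2-HOBA it was 5.25, 5.00, 4.98 and 4.71, in knockout vehicle arrays 4.82, 4.73 and 4.68, and in knockout Ang II arrays 4.35, 5.01, 4.99 and 4.88. The difference between Hyd/HCTZ and Ang II was 2.46 (SE 0.19, 95% interval 2.07 to 2.85, adjusted p = 9.92e-11), a 5.51-fold higher level, and 2.14 relative to all tested genes (adjusted p = 2.07e-09). With 5 in place of the Ang II mean of 4.64, which is below the test minimum, the difference was 2.10.

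Il12a encodes the partner of Il12b in IL-12, and it moved the other way. Its level was 3.65 to 4.05 on the Hyd/HCTZ arrays, with a median of 3.80. It was 4.98, 5.14, 4.97 and 4.91 on the Ang II arrays and 4.44 to 5.01 on the vehicle arrays, with a median of 4.95. The groups did not overlap, and the whole Hyd/HCTZ group was below 5. The other levels were 5.63, 5.69, 4.77 and 5.70 with 2-HOBA, 4.88, 5.53 and 4.70 in knockout vehicle arrays, and 4.51, 5.27, 5.46 and 4.36 in knockout Ang II arrays. Il12a fell by 1.19 between Ang II and Hyd/HCTZ (SE 0.21, 95% interval -1.62 to -0.76, adjusted p = 3.37e-05) and by 1.51 relative to all tested genes (adjusted p = 2.13e-06). With 5 in place of the Hyd/HCTZ mean of 3.81 no difference from the Ang II mean of 5.00 remained, so the size of this fall rests on levels below the test minimum.

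Il23a encodes the chain that pairs with Il12b in IL-23. It ranged from 3.51 to 4.71 over all 28 arrays, and the Hyd/HCTZ arrays, at 3.76 to 4.14, lay inside the range of the others. Its group means ran from 3.86 ± 0.35 in knockout Ang II arrays (n = 4) to 4.25 ± 0.24 in knockout vehicle arrays (n = 3), and neighbouring groups in that order overlapped.

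Ebi3 encodes the chain shared by IL-27 and IL-35. Its level on the Hyd/HCTZ arrays was 7.56 to 8.17 with a median of 7.77. It was 6.27, 5.26, 5.90 and 6.41 on the Ang II arrays and 5.69 to 6.78, median 6.52, on the vehicle arrays. All 6 Hyd/HCTZ arrays were above every other array, of which the highest was at 6.78. Levels were 6.20, 6.15, 6.44 and 5.64 with 2-HOBA, 6.65, 6.13 and 5.50 in knockout vehicle arrays and 5.78, 5.97, 5.89 and 6.44 in knockout Ang II arrays. The difference from Ang II alone was 1.84 (SE 0.23, 95% interval 1.37 to 2.32, adjusted p = 2.94e-07), a 3.59-fold higher level, and 1.52 relative to all tested genes (adjusted p = 7.16e-06).

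Il27, whose product pairs with that of Ebi3, did not rise with it. It was 5.06 to 5.47, median 5.37, on the Hyd/HCTZ arrays, 5.63, 5.91, 5.17 and 5.30 on the Ang II arrays and 4.92 to 6.05, median 5.65, on the vehicle arrays. The 3 groups overlapped. The difference between Hyd/HCTZ and Ang II was -0.18 (95% interval -0.57 to 0.21, adjusted p = 0.433) as deposited, and Il27 was called as lower when measured against the median of all tested genes (-0.50, adjusted p = 0.031). Whether Il27 is listed among the genes that moved thus depends on that reference. Its means in the other 5 groups lay between 5.49 and 5.73.

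Il15 supports natural killer cells and memory T cells and is presented by dendritic cells on its own receptor chain. It was 6.16 to 6.74, median 6.58, on the Hyd/HCTZ arrays. On the Ang II arrays it was 4.68, 3.82, 4.26 and 4.53, and on the vehicle arrays 3.77 to 5.55 with a median of 4.84. The lowest Hyd/HCTZ array was above the highest of the 22 others, at 5.55. Levels were 4.48, 3.92, 4.54 and 4.28 with 2-HOBA, 4.30, 4.38 and 4.13 in knockout vehicle arrays and 3.87, 4.50, 4.75 and 3.72 in knockout Ang II arrays. The Hyd/HCTZ mean was 6.55 ± 0.20 (SD, n = 6) and the Ang II mean 4.32 ± 0.37 (SD, n = 4), a difference of 1.55 with 5 in place of the latter.

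Tnf encodes tumour necrosis factor, an inflammatory cytokine that also matures dendritic cells. It was 6.74 to 7.40, median 7.21, on the Hyd/HCTZ arrays, 6.42, 6.38, 6.57 and 6.57 on the Ang II arrays and 5.62 to 6.67, median 6.51, on the vehicle arrays. The Hyd/HCTZ arrays lay above both of these groups, and knockout vehicle replicate 2, at 7.05, was the 1 array elsewhere that reached into their range. Levels were 6.49, 6.15, 6.02 and 6.18 with 2-HOBA, 5.84, 7.05 and 6.31 in knockout vehicle arrays and 6.36, 6.61, 6.10 and 6.45 in knockout Ang II arrays. Tnf rose by 0.69 over Ang II alone (SE 0.20, 95% interval 0.28 to 1.11, adjusted p = 0.00518). The call was lost relative to all tested genes (0.38, adjusted p = 0.123) and after quantile normalization, which gives all arrays the same spread of values (0.26, adjusted p = 0.271).

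Tgfb1 encodes transforming growth factor beta 1, which is made in a latent form and favours regulatory T cells or, beside IL-6, those that make IL-17. It was 7.95 to 8.85, median 8.45, on the Hyd/HCTZ arrays and 6.66, 7.03, 7.19 and 7.40 on the Ang II arrays. On the vehicle arrays it was 5.64 to 7.63 with a median of 7.42, and the lowest was the array labelled replicate 2 of wild type vehicle. All Hyd/HCTZ arrays were above the 22 others. Levels were 6.95, 7.31, 7.08 and 6.91 with 2-HOBA, 7.43, 7.03 and 7.20 in knockout vehicle arrays and 6.81, 6.88, 7.08 and 7.25 in knockout Ang II arrays. The difference from Ang II alone was 1.36 (SE 0.26, 95% interval 0.83 to 1.89, adjusted p = 8.54e-05) and 1.04 relative to all tested genes (adjusted p = 0.00158).

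Il6 and Il10 stayed below 5 throughout. Il6, a cytokine that acts on helper T cells beside TGF-beta 1, was 3.05 to 4.66, median 4.09, on the Hyd/HCTZ arrays and 2.76, 2.48, 1.93 and 2.31 on the Ang II arrays. On the vehicle arrays it was 1.79 to 2.92, median 2.14, and no array outside the Hyd/HCTZ group exceeded 2.92. Among the 9486 genes that were not tested, 0.369% had all 6 Hyd/HCTZ arrays above the 22 others, as Il6 did, and 3.67% had them all below. Genes that rose above 5 on enough Hyd/HCTZ arrays left this set by the test minimum. The low share of higher genes follows in part from that, so it does not mark Il6 as rare. Il10, which restrains inflammatory cytokines, was 3.13 to 4.54, median 4.05, on the Hyd/HCTZ arrays and 3.40, 2.82, 3.03 and 3.84 on the Ang II arrays, which overlapped. No difference or test is given for Il6 or Il10, since both groups were below the test minimum.

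Of the 6 cytokines that reached the test minimum without the Hyd/HCTZ arrays, Il12b, Ebi3 and Tgfb1 had every Hyd/HCTZ array above all 22 others. Il12a had every Hyd/HCTZ array lower, and Il27 and Tnf overlapped. Of all tested genes, 20.2% had every Hyd/HCTZ array higher and 1.84% every one lower. Outside this count, Il6 and Il15 had every Hyd/HCTZ array higher, as a description, and Il23a and Il10 overlapped. Within the Hyd/HCTZ group, replicate 4 was the lowest array for 6 of the 10 cytokines (Il12b, Il6, Il10, Il15, Tnf and Tgfb1). Replicate 3 was the highest for 4 (Ebi3, Il6, Tnf and Tgfb1). Replicate 4 had the narrowest interquartile range of the group, 3.09, and replicate 3 the widest, 3.44; the part of this spread in the order of the arrays was not tested.

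**Figure D2:**
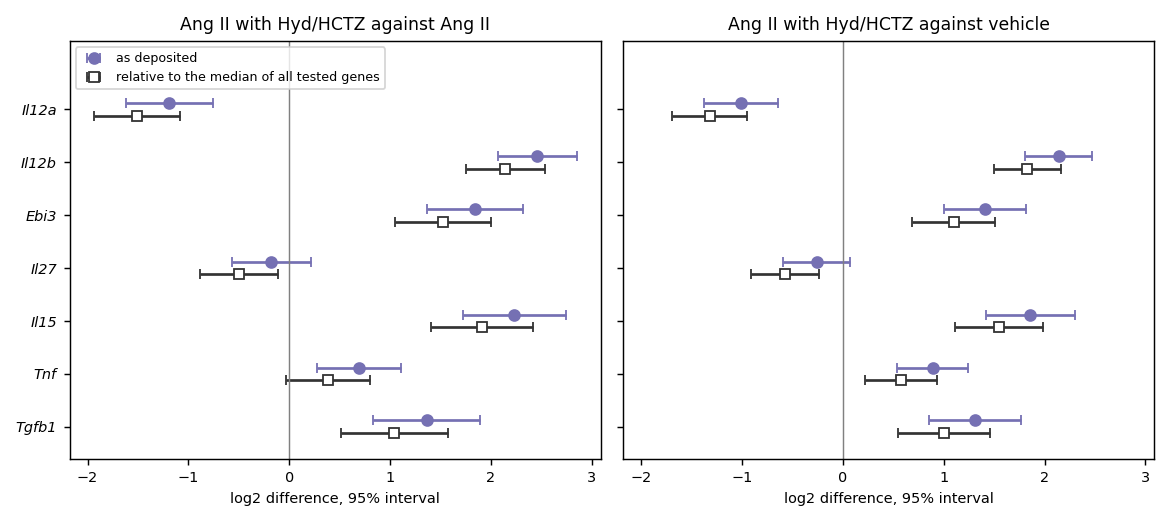
Log2 difference (x axis) of the 7 tested cytokines between Ang II with Hyd/HCTZ and Ang II alone (left) or vehicle (right), as deposited (filled circles) and relative to the median of all tested genes (open squares), with 95% intervals of limma. Il12b, Ebi3 and Tgfb1 lie above 0 and Il12a below it on both scales. The interval of Tnf on the left reaches 0 relative to the median. Il15 is drawn as a description. It passed the test minimum only through the Hyd/HCTZ arrays, so its interval is not read as a test.

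The comparison of Ang II with Hyd/HCTZ against vehicle uses the same 6 Hyd/HCTZ arrays and is no independent repeat. The same 5 of 6 cytokines were called, 4 higher and 1 lower, where 56.6% of all tested genes were called, 43.4% higher and 13.2% lower. The median difference was 1.10 over the 6 cytokines and 0.31 over all tested genes. Leaving out the array labelled replicate 2 of wild type vehicle gave the same 5. Relative to the median of 0.31, 4 were higher and 2 lower, where 52.3% of all tested genes were called, 25.3% higher and 27% lower. The arrays of the groups did not overlap for 5 of these 6 cytokines in either Hyd/HCTZ comparison, 4 higher and 1 lower. That held for 44.4% of all tested genes against Ang II (34.4% higher, 10% lower) and for 28.6% against vehicle (25% higher, 3.62% lower).

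Il12b was 2.14 above vehicle (SE 0.16, adjusted p = 2.85e-11). Il15, not tested here for the reason given, was 1.55 above vehicle with 5 in place of the vehicle mean of 4.69. Ebi3 was higher by 1.41 (SE 0.20, adjusted p = 1.13e-06), Tgfb1 by 1.31 (SE 0.22, adjusted p = 1.46e-05) and Tnf by 0.89 (SE 0.17, adjusted p = 8.77e-05). In this comparison Tnf was also called relative to all tested genes (0.58, adjusted p = 0.00594). Il12a fell by 1.01 (SE 0.18, adjusted p = 3.09e-05), from a vehicle mean of 4.82 that is itself below 5. The Hyd/HCTZ mean of 3.81 was below 5 too, so this fall cannot be sized, although the counts include Il12a as the lower cytokine. The difference of Il27 was -0.26 (adjusted p = 0.178) as deposited and -0.57 (adjusted p = 0.0045) relative to all tested genes. Il27 was also called after quantile normalization (-0.48, adjusted p = 0.0457) and without wild type vehicle replicate 5 (-0.37, adjusted p = 0.0415).

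Genes of the cells that can be present in a splenic preparation moved in the same comparison. Relative to Ang II alone, the Hyd/HCTZ group was higher in 5 of 6 shared dendritic cell markers, 6 of 6 tested markers of type 1, 5 of 5 of type 2 and 4 of 5 of plasmacytoid dendritic cells. It was also higher in 8 of 8 red pulp macrophage markers and 4 of 4 monocyte markers. It was lower in 6 of 6 B cell, 2 of 5 T cell, 1 of 5 natural killer cell, 3 of 5 neutrophil, 6 of 6 erythroid and 2 of 3 stromal markers. Of all tested genes 40.8% were higher and 11.9% lower. Relative to the median of all tested genes, 3 of 6 shared, 6 of 6 type 1, 3 of 5 type 2 and 3 of 5 plasmacytoid dendritic cell markers, 6 of 8 red pulp macrophage and 4 of 4 monocyte markers were higher. On that scale 6 of 6 B cell, 4 of 5 T cell, 3 of 5 natural killer cell, 4 of 5 neutrophil, 6 of 6 erythroid and 3 of 3 stromal markers were lower, beside 23.7% of all tested genes higher and 25% lower. The markers of a list were also summed on the linear scale on each array, with the sum given as log2, so the brightest probe sets weigh most. This log2 sum of the type 1 dendritic cell markers was 11.04 to 11.37 with Hyd/HCTZ, 9.66 to 10.17 with Ang II and 9.48 to 10.34 with vehicle. It was 9.76 to 10.11 with 2-HOBA, 9.46 to 9.91 in knockout vehicle and 9.63 to 9.91 in knockout Ang II arrays. For red pulp macrophage markers it was 11.06 to 12.45, 9.88 to 11.06, 9.72 to 11.96, 9.44 to 10.94, 10.06 to 11.24 and 10.20 to 11.36 in the same order. For monocyte markers it was 9.54 to 10.36, 8.27 to 9.03, 8.08 to 9.83, 8.25 to 9.14, 8.60 to 9.70 and 8.94 to 9.54. For B cell markers it was 8.70 to 10.03, 10.86 to 12.08, 9.80 to 11.90, 11.79 to 12.34, 11.27 to 11.58 and 10.16 to 11.52. The lowest value in the table was 0.90. Levels on this scale do not show whether a marker was expressed, since no detection calls were used. Clec10a, counted among the type 2 markers, averaged 5.21 with Hyd/HCTZ, 3.19 with Ang II and 4.24 with vehicle. The type 2 marker Clec4a4 averaged 7.14, 4.80 and 4.82 in the same order, and the plasmacytoid marker Ccr9 6.26, 4.27 and 4.83. Whether Clec10a, Clec4a4 and Ccr9 passed the test minimum without the Hyd/HCTZ arrays was not checked. Their values are therefore a description, although the counts include them. The type 1 dendritic cell marker Xcr1, a chemokine receptor, was 2.57 higher with Hyd/HCTZ than with Ang II (adjusted p = 1.15e-08), and the macrophage complement gene C1qa was 2.31 higher (adjusted p = 0.000118). The part of these cell types in the cytokine differences was not tested.

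The receptors of these cytokines also differed between Hyd/HCTZ and Ang II alone. Of 12 tested receptor genes 9 were higher and 1 was lower, where 40.8% of all tested genes were higher and 11.9% lower. Relative to the median of all tested genes 7 were higher and 2 lower, where the shares over all tested genes were 23.7% and 25%, and these 4 shares stand beside each list that follows. Their median difference was 1.11, beside 0.32 over all tested genes. Tnfrsf1a, a receptor of TNF, rose by 1.88 (SE 0.25, adjusted p = 8.11e-07). Il6st, the signalling chain shared by IL-6 and IL-27, rose by 1.40 (SE 0.24, adjusted p = 2.26e-05). Il10ra, a chain of the IL-10 receptor, rose by 1.35 (SE 0.22, adjusted p = 1.52e-05). Il27ra, the receptor chain of IL-27, fell by 1.13 (SE 0.17, adjusted p = 3.02e-06), from 5.44 ± 0.11 (SD, n = 4) to 4.31 ± 0.15 (SD, n = 6). That Hyd/HCTZ mean is below the test minimum of 5, which limits the size of this fall and of that against vehicle. Against vehicle, where 43.4% of all tested genes were higher and 13.2% lower (25.3% and 27% relative to the median), 8 receptor genes were higher and 1 was lower, and 7 and 2 relative to the median. There the largest among those named by p were Tnfrsf1a at 1.51, Il6st at 1.39 and Il6ra, the IL-6 receptor, at 1.12, with Il27ra at -0.99.

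Among signalling and feedback genes, of 14 tested, 6 were higher and 1 lower, and relative to all tested genes 3 were higher and 2 lower, with a median difference of 0.39. Both counts of higher genes are near the shares of 40.8% and 23.7% over all tested genes. Bcl3, a regulator of NF-kB, rose by 1.55 (SE 0.23, adjusted p = 3.90e-06). Traf1, an adaptor of TNF receptors, rose by 1.45 (SE 0.23, adjusted p = 1.01e-05). Jak2, a kinase that serves the IL-12 receptor, rose by 1.19 (SE 0.32, adjusted p = 0.00277). Stat5a, a transcription factor downstream of IL-15, was 0.54 higher (adjusted p = 0.0164), which was not called relative to all tested genes (0.22, adjusted p = 0.339). Smad3, which carries the TGF-beta signal, fell by 0.50 (SE 0.17, adjusted p = 0.0167). Against vehicle 7 of the 14 were higher and 1 was lower, and relative to the median 3 were higher and 3 lower. The lower gene as deposited was the kinase Jak1 at -0.40 (adjusted p = 0.0172).

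Among transcription factors that act on cytokine genes, of 17 tested, 13 were higher and 0 lower, and relative to all tested genes 8 were higher and 0 lower, with a median difference of 0.78, beside 40.8% and 23.7% of all tested genes higher. Nfil3, which acts in the development of type 1 dendritic cells, rose by 2.22 (SE 0.31, adjusted p = 1.53e-06). Bhlhe40, a repressor of Il10 in T cells, rose by 1.88 (SE 0.28, adjusted p = 3.45e-06). Batf3, a factor of type 1 dendritic cells, rose by 1.51 (SE 0.20, adjusted p = 4.23e-07), and Spi1, a factor of myeloid cells, by 1.47 (SE 0.28, adjusted p = 6.99e-05). Batf3, Irf4 and Irf8 stand in the dendritic cell marker lists as well. Against vehicle 15 of the 17 were higher and 0 lower, and 10 higher and 1 lower relative to the median, beside 43.4% and 25.3% of all tested genes higher, with Relb, an NF-kB subunit of mature dendritic cells, at 1.12.

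Among genes that act on the stability of cytokine messages or on the maturation of the proteins, 7 of 13 were higher and 0 lower, beside 40.8% and 11.9% of all tested genes. Relative to the median, 2 of these 13 were higher, Zfp36 and Zfp36l1, and 1 was lower, beside 23.7% and 25% of all tested genes. The 7 include Elavl1, which stabilises such messages (0.82, adjusted p = 0.026) and was named after its value was seen. They also include Thbs1, likewise named afterwards, which averaged 5.26 with Hyd/HCTZ, 4.58 with Ang II and 4.60 with vehicle. Whether Thbs1 passed the test minimum without the Hyd/HCTZ arrays was not checked. Its values are therefore a description, although the counts in both Hyd/HCTZ comparisons include it. Zfp36, which promotes decay of the Tnf message, was 1.00 higher (SE 0.23, adjusted p = 0.000564), and its relative Zfp36l1 was 0.86 higher (SE 0.20, adjusted p = 0.000686). Adam17, the protease that sheds TNF, was 0.90 higher (adjusted p = 0.0184) and Furin, which cleaves the TGF-beta 1 precursor, 0.58 higher (adjusted p = 0.0125), and neither was called relative to all tested genes (0.59, adjusted p = 0.127 and 0.26, adjusted p = 0.268). Against vehicle 7 of 13 were higher as deposited and 0 lower, and relative to the median 0 were higher and 1 lower.

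Among 20 other ligands that direct T cells, 7 were tested, and 3 were higher and 0 lower, beside 40.8% and 11.9% of all tested genes. Relative to the median 3 were higher and 1 lower, beside 23.7% and 25%, and the lower one was Il13 (-0.58, adjusted p = 0.0139), on means below 5. Il1b rose by 3.15 (SE 0.37, adjusted p = 8.72e-08), from 7.65 ± 0.79 (SD, n = 4) to 10.80 ± 0.16 (SD, n = 6). Il18 rose by 1.65 (SE 0.36, adjusted p = 0.000454). Il1a averaged 6.45 with Hyd/HCTZ and 3.76 with Ang II. All 3 are cytokines of the IL-1 family. The Ang II and vehicle means of Il1a, 3.76 and 4.41, were below the test minimum. Whether Il1a passed that minimum without the Hyd/HCTZ arrays was not checked. Its values are therefore a description, although the counts include it. Against vehicle the same 3 were higher, by 2.59, 2.03 and 1.10, and Il13, a cytokine of type 2 helper T cells, was 0.46 lower on means below 5. None of the 63 tested genes of these 5 lists was called in the other 6 comparisons.

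**Figure D3:**
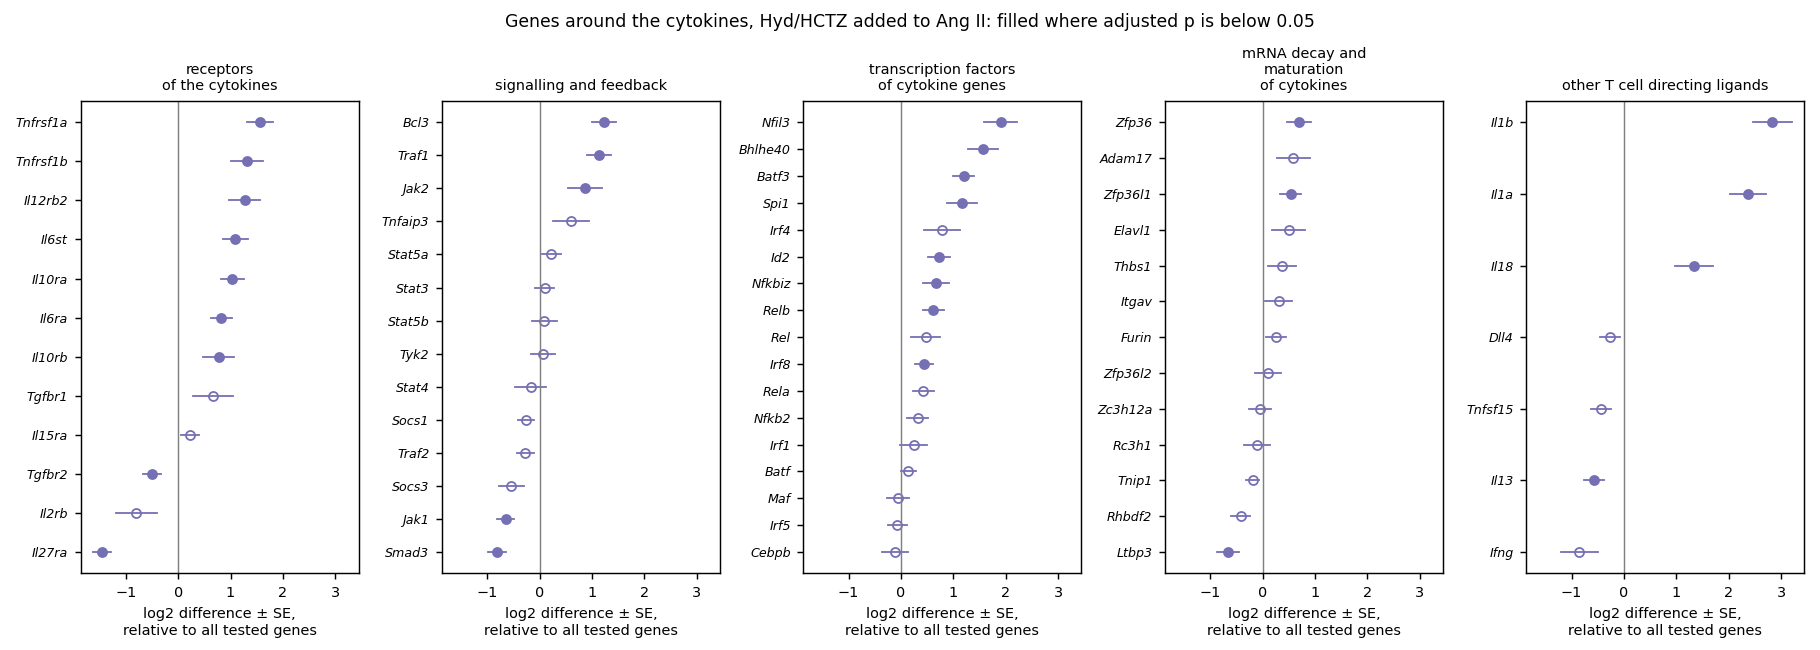
Log2 difference between Ang II with Hyd/HCTZ and Ang II alone, relative to the median of all tested genes (x axis, points with SE), for the tested genes of the 5 lists (y axis), filled where the adjusted p is below 0.05. Filled points to the right of 0 number 7 receptors, 3 signalling genes, 8 transcription factors, 2 decay or maturation genes and 3 other ligands.

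Ang II against vehicle in wild type arrays asked what the hormone does by itself. No cytokine was called (0 of 7), and limma called 0% of all tested genes, with 266 of the 10452 genes and 0 cytokines at an unadjusted p below 0.05. Differences of the 7 ran from -0.43 to 0.20, and their 95% intervals lay between -0.89 and 0.60, so differences of that size are not excluded. Ebi3 was at 5.96 ± 0.51 (SD, n = 4) with Ang II and 6.39 ± 0.36 (SD, n = 7) with vehicle, a difference of -0.43 (adjusted p = 1). Within the first and the second array set it was -0.46 and -0.36, and without Ang II replicate 2 it was -0.20. Il15 differed by -0.37 over all arrays, by 0.01 within the first array set and by -0.63 within the second, by -0.22 without vehicle replicate 5 and by -0.20 without Ang II replicate 2. Tnf was 6.49 ± 0.10 with Ang II and 6.29 ± 0.38 with vehicle (adjusted p = 1). Il6 was at 2.37 ± 0.34 and 2.21 ± 0.41 and Il23a at 4.18 ± 0.39 and 4.10 ± 0.42 in these groups, both untested, and their arrays overlapped.

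Adding 2-HOBA to Ang II asked whether scavenging lipid oxidation products alters the response. No cytokine was called (0 of 7; 0% of all tested genes by limma, 379 genes and 0 cytokines at an unadjusted p below 0.05). The differences ran from -0.28 for Tnf to 0.45 for Il12a, with 95% intervals between -0.73 and 0.92. Il12a was above the highest Ang II array on 3 of 4 arrays with 2-HOBA, and the fourth, at 4.77, was below the lowest (adjusted p = 0.977). Within the second array set the difference of Il12a was 0.51. Il12b differed by 0.35 (adjusted p = 0.977), by 0.32 within the second set and by 0.23 without Ang II replicate 3.

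In NOX2 knockout arrays, Ang II against vehicle gave 0 of 7 cytokines called and 0% of all tested genes, with 296 genes and 0 cytokines at an unadjusted p below 0.05 in limma. Differences ran from -0.21 for Tgfb1 to 0.07 for Il12b, with 95% intervals between -0.84 and 0.55. Il12a, at 4.90 ± 0.54 (n = 4) and 5.04 ± 0.43 (n = 3), differed by -0.14, and this sign turned without knockout vehicle replicate 2 (0.11) or without knockout Ang II replicate 4 (0.04). The interaction, which asks whether the response to Ang II differs between genotypes, called 0 of 7 cytokines and 0% of all tested genes, with 257 genes and 0 cytokines at an unadjusted p below 0.05. Its estimates ran from -0.32 for Il12a to 0.39 for Il12b, with 95% intervals between -0.98 and 1.09.

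The knockout arrays were also set against wild type arrays of the same treatment. With vehicle 0 of 7 cytokines were called, and 1 of 10452 genes (0.00957%), with 657 genes and 0 cytokines at an unadjusted p below 0.05 in limma. The differences ran from -0.42 for Il15 to 0.22 for Il12a, with 95% intervals between -0.97 and 0.67. Il15 was 4.27 ± 0.13 (SD, n = 3) in knockout and 4.69 ± 0.58 (SD, n = 7) in wild type arrays (adjusted p = 0.895). It differed by 0.03 within the first array set, and by -0.57 without the array labelled replicate 2 of wild type vehicle. With each array weighted by how well it fits its group, Il15 was called (-0.58, adjusted p = 0.0407) among 1437 genes. Both group means of Il15, 4.27 and 4.69, were below the test minimum, so this call carries no statement about its expression. With Ang II 0 of 7 cytokines were called and 5 genes in all (0.0478%), with 714 genes and 0 cytokines at an unadjusted p below 0.05. Here the differences ran from -0.11 to 0.22, with 95% intervals between -0.67 and 0.65. Il27 differed by 0.22 (adjusted p = 0.907), which was -0.04 within the first array set, 0.10 without knockout Ang II replicate 4 and 0.11 without wild type Ang II replicate 3.

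**Figure D4:**
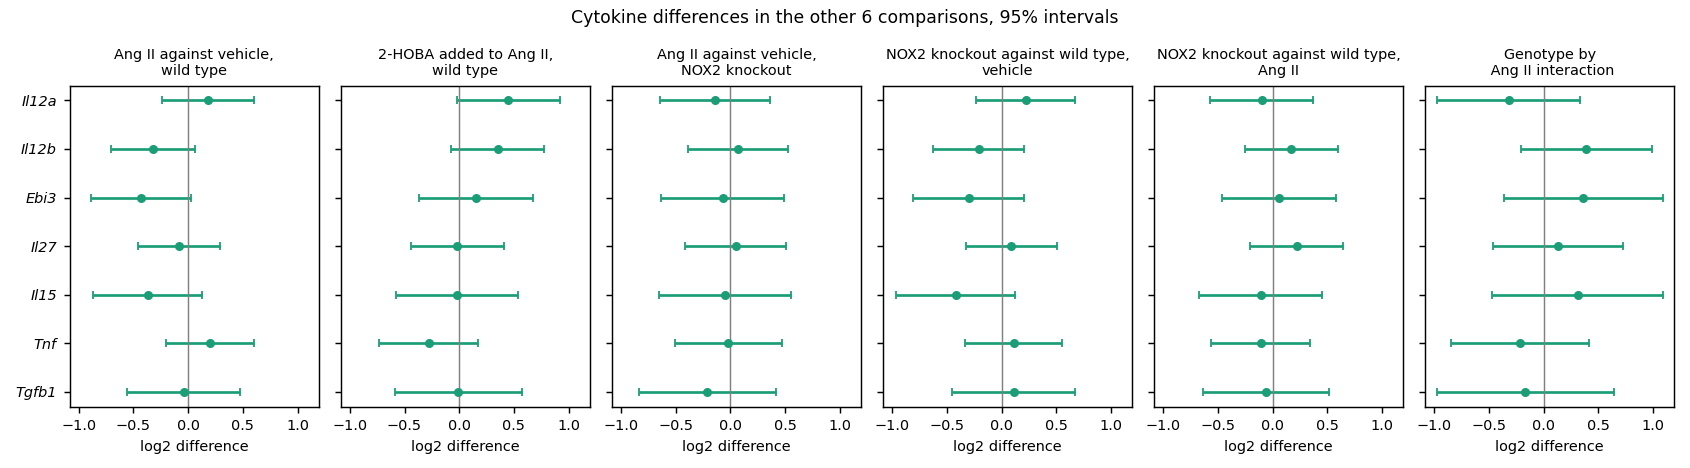
Log2 difference (x axis, points with 95% intervals of limma) of the 7 tested cytokines (y axis) in the 6 comparisons without Hyd/HCTZ. Every interval includes 0, and the differences lie between -0.43 and 0.45. The means of Il12b and Il15 were below 5 in all groups compared here.

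Across the 6 groups, the means of 5 tested cytokines spanned more than 1 log2 step. The span was 2.46 for Il12b, 2.34 for Il15, 1.84 for Ebi3, 1.64 for Il12a and 1.42 for Tgfb1. Leaving out the Hyd/HCTZ group, the means of Il12b lay between 4.64 and 4.99, those of Il15 between 4.21 and 4.69, those of Ebi3 between 5.96 and 6.39, those of Il12a between 4.82 and 5.45 and those of Tgfb1 between 7.01 and 7.22, and the 5 groups overlapped in each pair that was compared. The tested genes with the most similar pattern were taken by the root mean square difference of 6 group means, each gene centred on its own mean. For Il12b they were Dgat1 (0.091), Creg1 (0.104) and Cisd1 (0.105), and for Il12a Bend5 (0.091), Ifi206 (0.097) and Pxk (0.104). For Ebi3 they were Acp2 (0.041), Tspan13 (0.053) and Ehf (0.055), for Il15 Errfi1 (0.053), Idi1 (0.088) and Mt1 (0.089), and for Tgfb1 Tufm (0.023), Nme4 (0.033) and Cyb5r3 (0.041). Except for those of Il12a, these neighbours had their highest mean with Hyd/HCTZ. Bend5, at 4.48 with Hyd/HCTZ against 5.43 to 6.08 elsewhere, had its lowest in that group. Both follow from how neighbours were picked, since most of each span came from the Hyd/HCTZ group, and are no separate result.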

How the data were processed

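Total RNA of splenic dendritic cells was extracted with Trizol and hybridised as biotin-labelled cRNA to 28 arrays, per the labels' protocols. The authors deposited 1 log2 value per probe set and array, made with RMA and Partek 6.6, per the submitters' processing notes; the sources used here do not give its background settings. Names came from GEO's annotation of the platform (21789 of 35556 with 1 symbol, 1621 with several, 12146 unnamed), 21698 matched to RefSeq (GRCm38.p6) by Entrez identifier, and for several probe sets of 1 gene the highest mean was kept. The 10452 genes above 5 on at least 3 arrays entered the test with limma 3.58.1, run in R 4.3.3 (6 group means, 28 arrays, shared spread, eBayes), two-sided, with Benjamini-Hochberg adjustment over all tested genes and calls below 0.05. The script was tested on simulated data. All arrays of a group count as replicates, as labelled; nothing says how they were derived, so p-values measure the spread between these samples. Titles of knockout Ang II arrays write Ang I, and their descriptions, which write Ang II, were followed. Cytokines, gene lists and marker lists were chosen with earlier results of these data known. Named list genes are up to 4 called members with the smallest p in a comparison, up to 2 called members that moved the other way, and the defining markers. Pattern neighbours leave out predicted genes, pseudogenes, small RNAs and receptor or immunoglobulin segments. Alternatives were no filter, a filter above 7, quantile normalization, differences relative to the median, trended and robust eBayes, array weights, only the arrays compared, the replicate number or the array set as a block, fits within array sets, and leaving out each array. Same-numbered arrays did not deviate together (57 pairs, correlations -0.35 to 0.37, 10 over 0.1), so the numbers were not taken as pairs.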

Additional observations from a re-analysis of the deposited data

Results flagged for a closer look

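Over the 10 cytokines and the 5 groups of 4 to 7 arrays, 50 sets of levels were examined for an array far from the rest of its group, and 4 had one, where chance gives about 1 in 20. Il12a was at 4.77 on 2-HOBA replicate 3, with the other 3 arrays at 5.63 to 5.70. Il15 was at 6.16 and Tnf at 6.74 on Hyd/HCTZ replicate 4, with the other 5 arrays at 6.55 to 6.74 and at 7.21 to 7.40. Tgfb1 was at 5.64 on the array labelled replicate 2 of wild type vehicle, with the other 6 at 6.89 to 7.63.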

How the results depend on the processing

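Over 32 cytokine differences and their 514 alternative values, 501 kept direction and side of the threshold, and over 8 counts of called cytokines 161 of 162 alternative values stayed within 1.5 times. The exception was knockout against wild type with vehicle, with 1 cytokine called under array weights (Il15, -0.58, on group means below 5). The sign changed in 6 values, all of differences that the report does not call: Il15 for Ang II against vehicle in wild type within the first array set (0.01), Il12a for Ang II in knockout arrays leaving out 1 array (-0.32 to 0.11), Il15 for knockout against wild type with vehicle within the first array set (0.03), and Il27 for knockout against wild type with Ang II with the array set as a block (-0.05) and within the first set (-0.04). The cause was not tested. With Hyd/HCTZ, counted with Il15, 4 to 8 cytokines were called under the alternatives in each comparison. The main fit called 52.7% of all tested genes against Ang II and 56.6% against vehicle. No filter called 8 of 10, among 8761 of 19938 genes against Ang II and 10334 of them against vehicle. That count takes in cytokines too dim for a test here, so it adds nothing for those. A filter above 7 left 4 of the 7 for testing, all called, but Il12b, Ebi3 and Tnf passed it only through the Hyd/HCTZ arrays, so for them it says nothing about stability. Leaving out 1 array gave 6 against Ang II and 6 to 7 against vehicle. The replicate number as a block left 6 called in each Hyd/HCTZ comparison and 0 in each of the other 6, and changed no call. The array set as a block could not be fitted for Hyd/HCTZ, and no other single-symbol probe set of a cytokine was there to try. No scanner signal was used, so levels near or below 5 limit what Il12a, Il23a, Il6 and Il10 can show. They also limit Il12b and Il15 outside the Hyd/HCTZ group.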
